A study of Homo sapiens with 16 samples.

Results

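The 10 genes described here were SETD2 and 9 other regulators of methylation on lysine 36 of histone H3 (H3K36): the methyltransferases NSD1, NSD2, NSD3, ASH1L, SMYD2 and SETMAR, the demethylases KDM2A and KDM4A, and the reader ZMYND11. They were chosen by gene name, as 10 of the 60606 genes counted in each library. Polyadenylated RNA had been sequenced from 16 libraries of a pair of established clear cell renal carcinoma lines, 786-O and A498, both grown in RPMI medium with serum. The 786-O libraries fell into 4 groups of 3: SETD2 knockout (KO, also labelled null) cells in 100 nM A1331852, wild-type (WT) cells in 100 nM A1331852, KO cells in DMSO, and WT cells in DMSO, all harvested at 72 h. A1331852 inhibits the anti-apoptotic protein BCL-XL, and DMSO is its vehicle. A498 gave 2 libraries labelled SETD2 deficient (genotype null) and 2 labelled SETD2 add-back (genotype WT), all without treatment. The labels do not say how many clones the KO or add-back cells came from, or whether replicates were separate cultures, and the p-values below rest on the spread among these libraries alone. The comparisons asked how SETD2 transcript levels differed between these groups, and whether other enzymes of the mark were higher where SETD2 was knocked out.

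SETD2 travels with elongating RNA polymerase II and is the main human enzyme that trimethylates H3K36 over gene bodies. NSD1, NSD2, NSD3 and ASH1L make the mono- and dimethyl forms, KDM2A removes those lower forms, KDM4A removes the trimethyl form, and ZMYND11 binds trimethylated H3K36 on the variant histone H3.3. SMYD2 and SETMAR have also been reported to methylate H3K36, although both are better known for other activities. SETD2 lies on the short arm of chromosome 3, which is commonly lost in clear cell renal carcinoma, and its remaining copy is mutated in part of these tumours.

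Of the 10 genes, SETD2 and ZMYND11 were called lower in the knockout under both treatments, so the 250 bases before their starts are shown. The sequences are those of RefSeq on GRCh38.p14. Capitals mark matches to 3 short promoter motifs, searched on both strands: GGGCGG (the GC box), CCAAT, and CCGGAA (the core bound by ETS factors). The SETD2 stretch is chr3:47164114-47164363 on the minus strand and ends at the first base before the gene's start in the counting annotation. The ZMYND11 stretch is chr10:134234-134483 on the plus strand, and the RefSeq start lay 19 bases from the start in the counting annotation.
SETD2: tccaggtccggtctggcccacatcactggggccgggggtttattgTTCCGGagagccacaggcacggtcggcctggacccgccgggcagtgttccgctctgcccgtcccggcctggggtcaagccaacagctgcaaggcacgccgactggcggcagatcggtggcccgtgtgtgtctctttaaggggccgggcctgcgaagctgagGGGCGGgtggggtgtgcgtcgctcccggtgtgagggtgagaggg
ZMYND11: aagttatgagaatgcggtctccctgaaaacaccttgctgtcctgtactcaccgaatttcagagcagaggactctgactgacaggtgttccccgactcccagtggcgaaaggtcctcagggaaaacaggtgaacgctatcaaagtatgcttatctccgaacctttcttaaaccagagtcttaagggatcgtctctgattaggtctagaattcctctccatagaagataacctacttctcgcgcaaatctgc
The SETD2 stretch held 1 GGGCGG and 1 CCGGAA, the second as its reverse complement TTCCGG, and the ZMYND11 stretch held none of the 3 motifs. GC content was 69.6% for SETD2 and 47.2% for ZMYND11, with 21 and 9 CpG dinucleotides. Of 35116 promoter stretches of the same length, 42.6% held GGGCGG, 32.0% CCAAT and 14.5% CCGGAA. Of the 9 members with a promoter entry, 5, 2 and 2 held them.

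Total counts ran from 14172118 to 36037616 per library. Batch 1 in the labels held replicate 3 of both DMSO groups and all 6 A1331852 libraries, batch 2 held DMSO replicates 1 and 2 of both genotypes, and batch 3 was A498, so line and batch cannot be told apart. Renal epithelial genes were present in every library (PAX8 at 120.2 to 368 counts per scaled library total of 1000000, CPM), and the marker lists moved with the groups. Of 9 renal epithelial markers, 1 rose and 4 fell in KO against WT cells in A1331852 (median log2 change -0.64), 2 fell in DMSO (-0.36), and 8 rose in deficient against add-back A498 libraries (0.64). Of 6 leukocyte markers 5 were at most 0.331 CPM and were not tested, and CD14, at 0.0649 to 1.44 CPM, rose in KO cells (1.77 in A1331852 and 2.95 in DMSO, adjusted p 0.00262 and 3.40e-04, edgeR). Of 5 fibroblast markers 3 were tested in 786-O: LUM, at 0 to 9.02 CPM over all libraries, fell in KO cells (-2.70 in A1331852 and -1.87 in DMSO, adjusted p 1.64e-05 and 1.70e-04, edgeR), PDGFRB fell in A1331852 (-1.42, 0.0182), and COL1A1, at 1.28 CPM or more in every library, was not called. None of 5 endothelial markers passed the low-count filter in 786-O. The part of these differences in the results below was not tested. In bulk RNA, fewer cells expressing a gene and less RNA per cell cannot be told apart.

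With all 12 libraries of 786-O, none of the other 9 genes was called higher in KO than in WT cells by edgeR or DESeq2, and none of them passed an unadjusted p under 0.05 in that direction. NSD1 was called higher in a fit to batch 2 alone, where 9276 genes were called over all genes, as given below. In A1331852, SETD2, ASH1L and ZMYND11 fell, where 28.2% of the 16260 genes tested were called (13.2% higher and 15.0% lower). In DMSO, SETD2, SMYD2 and ZMYND11 fell, where 18.5% of all genes tested were called (8.29% higher and 10.2% lower). A gene was called at an adjusted p under 0.05 in edgeR's quasi-likelihood test with Benjamini-Hochberg adjustment over all genes tested. The median log2 change of the 10 genes was -0.29 in A1331852 and -0.40 in DMSO, against -0.01 and -0.02 over all genes tested. SETD2 was the gene knocked out, and its own fall is part of these medians and of the numbers called. Apart from SETD2, the genes called were ASH1L and ZMYND11 in A1331852, and SMYD2 and ZMYND11 in DMSO. In A498, 1 of the 10 genes was called, SETMAR, which was lower in the deficient libraries (30.2% of 15424 genes called, 15.1% in each direction), and the median was -0.10 against -0.01 over all genes. Setting same-numbered KO and WT libraries as pairs brought the number called to 5 in A1331852 and 6 in DMSO, each of them lower in KO cells, while the share called over all genes was then 38.6% and 28.6%.

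**Figure D1:**
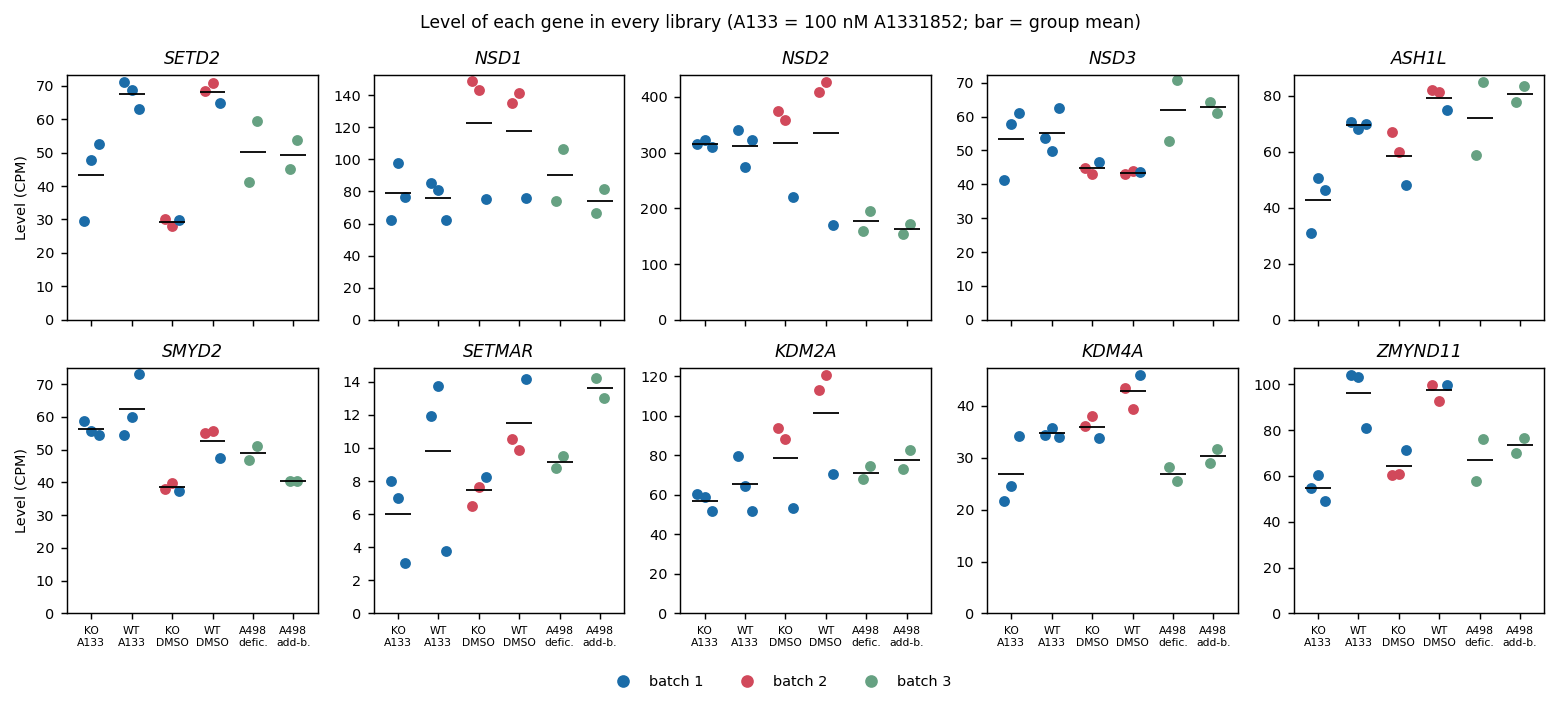
Level of each gene in CPM in every library, 1 point per library coloured by labelled batch, with a bar at the group mean; A133 stands for 100 nM A1331852. The 3 KO libraries in DMSO lie between 28.0 and 30.0 CPM for SETD2, below the WT libraries in DMSO at 65.0 to 70.9 CPM, while NSD1, NSD2 and KDM2A separate by batch within the DMSO groups.

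SETD2 (chr3:47016428-47164113, minus strand, GRCh38) was counted over 14308 exon bases with no exon shared with another gene. Its level was 29.4, 47.7 and 52.5 CPM in the 3 KO libraries in A1331852, against 71.2, 68.6 and 63.1 CPM in WT libraries in A1331852. In DMSO it was 30.0, 28.0 and 30.0 CPM in KO libraries, against 68.6, 70.9 and 65.0 CPM in WT libraries. Every KO library lay below every WT library of its treatment, and 1 of the KO libraries in A1331852 lay at the level of the KO libraries in DMSO. The KO mean was 0.639 times the WT mean in A1331852 (43.2 ± 12.2 against 67.6 ± 4.16 CPM, SD, n = 3 each) and 0.430 times in DMSO (29.3 ± 1.18 against 68.2 ± 2.98 CPM). On the log2 scale SETD2 fell by 0.65 ± 0.18 (SE) in A1331852 (adjusted p = 0.0168, edgeR) and by 1.21 ± 0.18 in DMSO (adjusted p = 7.39e-04).

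The DMSO difference was -1.26 within batch 2 and -1.11 between the single libraries of batch 1. In A1331852, a fit to batch 1 alone gave -0.64 with an adjusted p of 0.0844, and the difference was -0.43 without KO replicate 1, the library at 29.4 CPM (adjusted p = 0.0179, edgeR). SETD2 transcript was therefore measured in every KO library. Counts summed over all exons of a gene do not show which exons were edited or whether the remaining transcript encodes protein.

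Among transcripts of these 10 genes, scaled for exon length (TPM), SETD2 was one of the lower ones. Its mean over the 6 group means was 13.8 TPM, close to NSD3 at 13.6 TPM and NSD1 at 16.4 TPM. The highest means were those of ZMYND11 (54.6 TPM), NSD2 (51.2 TPM) and SMYD2 (39.3 TPM), and their order differed between groups. By group mean, NSD2 was above ZMYND11 in KO libraries, at 64.8 against 43.0 TPM in A1331852 and 60.8 against 47.6 TPM in DMSO. In WT libraries the ZMYND11 mean was higher, at 71.6 against 60.8 TPM in A1331852 and 66.4 against 58.7 TPM in DMSO. Within 786-O the ranges separated only for KO in A1331852, at 60.3 to 68.6 TPM for NSD2 and 39.8 to 49.0 TPM for ZMYND11. In WT libraries in DMSO, NSD2 ran from 32.4 to 73.1 TPM, against 60.6 to 72.6 TPM for ZMYND11. KDM2A averaged 27.7, KDM4A 24.5, ASH1L 18.7 and SETMAR 11.5 TPM.

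In A498 the SETD2 level did not separate the labels. It was 41.1 and 59.4 CPM in the libraries labelled deficient, against 45.0 and 53.9 CPM in the libraries labelled add-back. The add-back values lay inside the range of the deficient ones, and the log2 difference was 0.00 ± 0.17 (95% interval -0.36 to 0.37, adjusted p = 0.991, edgeR). Gene-level counts do not tell an introduced copy from the line's own transcript, and a transcript made from a mutated gene would be counted as well, so this level does not check the labels. The knockout effect in 786-O in DMSO minus the deficient against add-back effect in A498 was -1.24 ± 0.29 (95% interval -1.86 to -0.63, adjusted p = 0.0106, edgeR), where 13.2% of 17868 genes were called for that difference (6.12% higher and 7.10% lower). That call was lost without A498 deficient replicate 2 (-0.95, adjusted p = 0.0782) or A498 add-back replicate 1 (-1.11, adjusted p = 0.0765).

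In both groups where SETD2 varied most between replicates, long genes varied in the same direction. The measure was the median deviation from the group mean (log2) over 1841 genes with at least 10000 exon bases, minus that over 1761 genes with fewer than 3000, and it was added after the values were seen. It was -0.30, 0.13 and 0.16 in the KO libraries in A1331852, whose SETD2 levels were 29.4, 47.7 and 52.5 CPM, and -0.15 and 0.15 in the deficient A498 libraries at 41.1 and 59.4 CPM. The other libraries lay between -0.05 and 0.05. NSD1, NSD2, NSD3, ASH1L and KDM2A, with 10381 to 21794 exon bases, are long genes by the same limit. The part of this variation in the levels of SETD2 and of these genes was not tested.

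**Figure D2:**
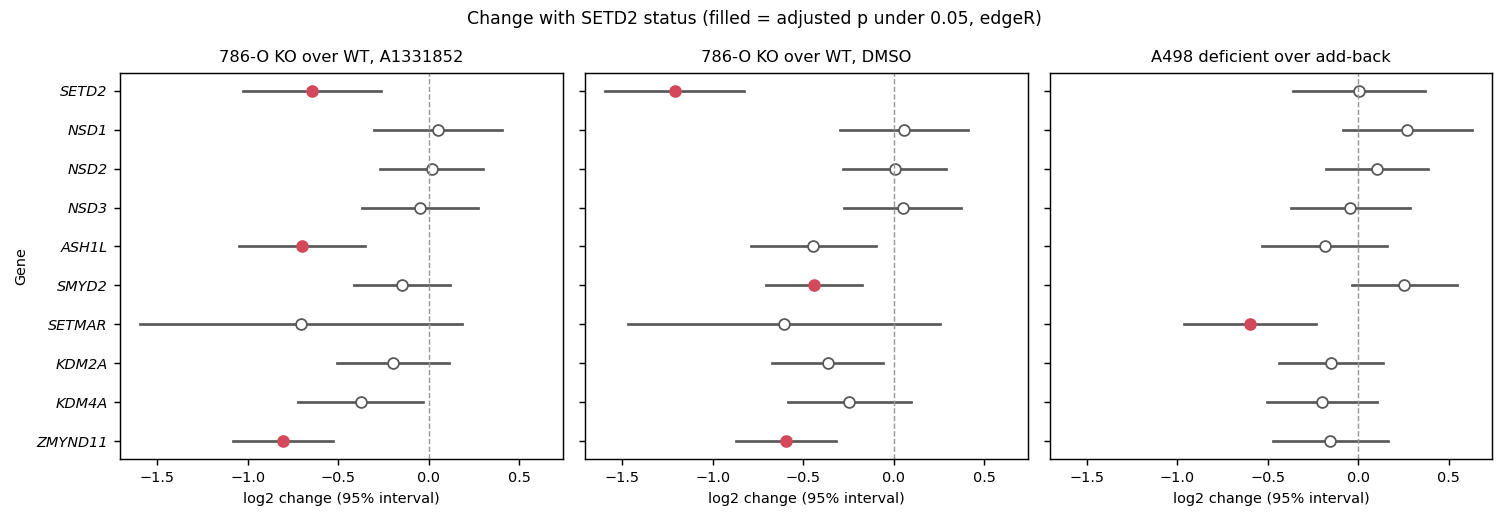
Log2 change of each gene with its 95% interval in 786-O KO over WT cells in A1331852, in KO over WT cells in DMSO, and in A498 deficient over add-back libraries, with filled points for an adjusted p under 0.05 (edgeR). SETD2 and ZMYND11 are filled and below 0 in both 786-O panels, and no filled point lies above 0.

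None of the genes nearest to SETD2 on chromosome 3 was called between KO and WT cells. ALS2CL, CCDC12 and NBEAL2 are its nearest tested coding genes at lower coordinates, and KIF9, KLHL18 and PTPN23 at higher coordinates. Their log2 changes in KO against WT cells lay between -0.00 and 0.22 in A1331852 and between -0.19 and 0.05 in DMSO. NBEAL2, the nearest on the lower side, had 95% intervals of -0.05 to 0.45 in A1331852 and -0.33 to 0.16 in DMSO. In A498, ALS2CL was lower in the deficient libraries (-0.51 ± 0.18, adjusted p = 0.0430, edgeR), and it was the only one of the 6 called there.

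**Figure D3:**
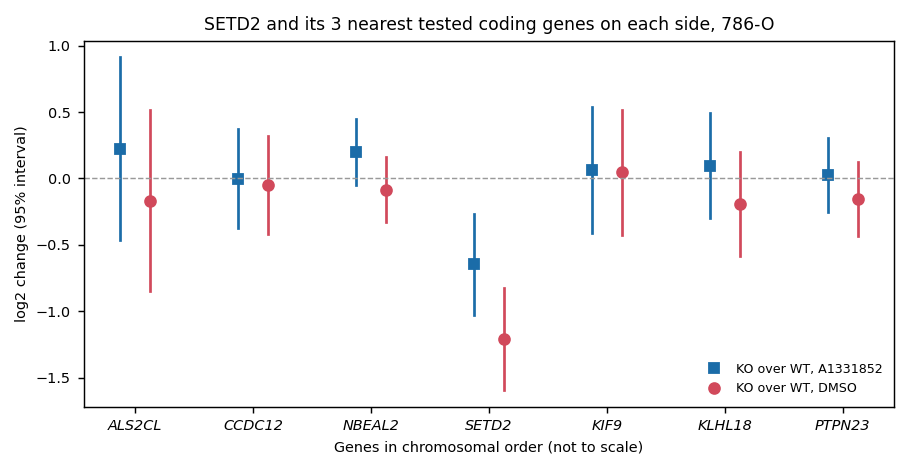
Log2 change with 95% interval of SETD2 and the 3 nearest tested coding genes on each side, in chromosomal order and not to scale, for 786-O KO over WT cells in A1331852 (squares) and in DMSO (circles). SETD2 lies at -0.65 and -1.21, while each neighbour's interval includes 0.

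Among the NSD family, whose 3 members are the main enzymes for H3K36 dimethylation, no gene was called between KO and WT cells. NSD1 (chr5:177131830-177300213) had 62.1, 97.7 and 76.8 CPM in KO libraries in A1331852, against 85.6, 80.9 and 62.2 CPM in WT libraries in A1331852. It had 149, 143 and 75.6 CPM in KO libraries in DMSO, against 135, 142 and 76.2 CPM in WT libraries in DMSO. The groups overlapped under both treatments, and the low DMSO library of each genotype was replicate 3, the batch 1 library. NSD1 differed between KO and WT cells by 0.05 in A1331852 (95% interval -0.30 to 0.40) and 0.06 in DMSO (-0.30 to 0.41). Fitted to the 4 libraries of batch 2 alone, NSD1 was called higher in KO cells in DMSO, by 0.12 (adjusted p = 0.0322, edgeR). That fit called 9276 genes over all genes, against 3001 with all libraries of 786-O. It held only DMSO replicates 1 and 2, the closest replicates. Their mean chi-square per gene was 2.96 in KO and 3.47 in WT cells, against 82.1 to 118.1 with replicate 3. The p-values of that fit therefore rest on little spread between libraries. The NSD1 difference was -0.01 between the single libraries of batch 1.

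NSD2 (chr4:1871393-1982207) had the highest level among the NSD genes in TPM and the widest spread in DMSO. It had 315, 323 and 309 CPM in KO libraries in A1331852, against 340, 274 and 323 CPM in WT libraries in A1331852. In DMSO it had 375, 358 and 220 CPM in KO libraries, against 409, 427 and 170 CPM in WT libraries. Replicate 3 was again the low DMSO library of both genotypes, and batch 1 minus batch 2 was -0.74 in KO and -1.30 in WT cells on the log2 scale. The KO and WT ranges overlapped, and the difference was 0.02 in A1331852 (95% interval -0.27 to 0.30) and 0.01 in DMSO (-0.28 to 0.29). Within batches the DMSO difference had opposite signs, -0.19 in batch 2 and 0.37 in batch 1, where each genotype had 1 library. The fit to batch 2 alone, which called 9276 genes over all genes, called NSD2 lower in KO cells (-0.15, adjusted p = 0.00593, edgeR). This p-value rests on the same close replicates.

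NSD3 (chr8:38269704-38382272), which also has a short isoform without the catalytic domain, was 53.5 ± 10.6 CPM in KO and 55.3 ± 6.60 CPM in WT libraries in A1331852, and 44.7 ± 1.74 CPM in KO and 43.5 ± 0.474 CPM in WT libraries in DMSO (SD, n = 3 each). The differences were -0.05 (95% interval -0.37 to 0.27) in A1331852 and 0.05 (-0.27 to 0.37) in DMSO. For each of the 3 NSD genes, the upper end of the interval lay at or below 0.41 in both treatments. In A498 the deficient minus add-back differences were 0.27 ± 0.17 for NSD1, 0.10 ± 0.13 for NSD2 and -0.04 ± 0.15 for NSD3, and none was called. Without A498 deficient replicate 1, the NSD1 difference was 0.52, higher in the remaining deficient library. That library had the higher long-gene measure of the deficient pair (0.15), and a fit to it assumes that a lone library varies as the add-back pair did.

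ASH1L (chr1:155335268-155563162), a dimethyltransferase of the trithorax group, was called lower in KO cells in A1331852. It had 31.1, 50.8 and 46.4 CPM in KO libraries in A1331852, against 70.7, 68.1 and 69.9 CPM in WT libraries in A1331852. In DMSO it had 67.1, 60.1 and 48.1 CPM in KO libraries, against 82.0, 81.3 and 74.9 CPM in WT libraries. The genotypes did not overlap under either treatment. ASH1L fell by 0.70 ± 0.16 on the log2 scale in A1331852 (95% interval -1.05 to -0.35, adjusted p = 0.00673, edgeR). The DMSO difference was -0.44 ± 0.16 with an adjusted p of 0.0717, and was called at 0.0358 with the replicate block. In A498, ASH1L was 59.0 and 84.9 CPM in deficient libraries, against 77.9 and 83.4 CPM in add-back libraries, with a difference of -0.19 (95% interval -0.53 to 0.16). Without deficient replicate 2 the difference was -0.47, resting on the 1 deficient library with the lower long-gene measure (-0.15).

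SMYD2 (chr1:214281102-214337131), which methylates p53 and other proteins besides histones, was 38.1, 39.8 and 37.5 CPM in KO libraries in DMSO, against 54.9, 55.7 and 47.3 CPM in WT libraries in DMSO. The groups did not overlap, and SMYD2 fell by 0.44 ± 0.12 on the log2 scale (edgeR, adjusted p = 0.0258). In A1331852 the values were 58.8, 55.7 and 54.3 CPM in KO libraries, against 54.4, 59.9 and 73.0 CPM in WT libraries, and they overlapped (-0.15, 95% interval -0.41 to 0.12). The DMSO call was lost without any single DMSO library (adjusted p 0.0623 to 0.122) or without KO A1331852 replicate 2 (0.0505). It was also lost without the batch term (0.0764) and with no filter on low counts (0.0570). In A498 the deficient libraries had 46.8 and 51.0 CPM, against 40.3 and 40.5 CPM in the add-back libraries. Both deficient values were higher (0.25 ± 0.14, adjusted p = 0.173, edgeR). Without deficient replicate 1 the difference was 0.32, resting on the 1 remaining deficient library.

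The SMYD2 difference in 786-O in DMSO minus that in A498 was -0.73 ± 0.19 (95% interval -1.12 to -0.33, adjusted p = 0.0175, edgeR). This call was lost without A498 add-back replicate 1 (-0.71) or 2 (-0.72), or A498 deficient replicate 2 (-0.66). It was also lost without KO DMSO replicate 1 (adjusted p = 0.0553, edgeR) or 2 (0.0507). The same held without the batch term (0.0555) and with no filter on low counts (0.0558).

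SETMAR (chr3:4303332-4317265) joins a SET domain to the transposase of an old mobile element and takes part in DNA end joining. It was the lowest of the 10 in CPM. It had 7.98, 6.96 and 3.06 CPM in KO libraries in A1331852, against 11.9, 13.8 and 3.79 CPM in WT libraries in A1331852. In DMSO it had 6.50, 7.61 and 8.24 CPM in KO libraries, against 10.5, 9.89 and 14.1 CPM in WT libraries. Replicate 3 in A1331852 was the low library in both genotypes. The KO against WT differences were -0.71 ± 0.41 in A1331852 (adjusted p = 0.222, edgeR) and -0.61 ± 0.39 in DMSO (0.327), and with the replicate block both were called, at -0.66 (adjusted p = 0.0115) and -0.61 (0.0157). Without WT A1331852 replicate 3 the A1331852 difference was -1.08 (adjusted p = 0.0101).

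In A498, SETMAR was 8.77 and 9.53 CPM in the deficient libraries, against 14.3 and 13.0 CPM in the add-back libraries, and the pairs did not overlap. It fell by 0.60 ± 0.17 on the log2 scale (95% interval -0.96 to -0.23, adjusted p = 0.0168, edgeR). The call was lost without add-back replicate 1 (-0.52, adjusted p = 0.177) or replicate 2 (-0.66, adjusted p = 0.0681), and in DESeq2 (adjusted p = 0.0537).

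KDM2A (chr11:67119263-67258082), which removes the mono- and dimethyl marks and binds unmethylated CpG, followed the batches in DMSO. It had 60.2, 58.8 and 51.9 CPM in KO libraries in A1331852, against 79.4, 64.6 and 52.0 CPM in WT libraries in A1331852. In DMSO it had 93.7, 88.5 and 53.6 CPM in KO libraries, against 113, 121 and 70.5 CPM in WT libraries. Within each DMSO batch the KO libraries were lower, by similar amounts, -0.36 in batch 2 and -0.40 in batch 1. The adjusted p was 0.331 in A1331852 (-0.20) and 0.0970 in DMSO (-0.36 ± 0.14), and 0.0218 in DMSO with the replicate block. Without WT A1331852 replicate 3, KDM2A was called lower in KO cells both in A1331852 (-0.34, adjusted p = 0.0489) and in DMSO (-0.37, 0.0246), and over all libraries left out in turn the A1331852 difference ran from -0.34 to -0.03.

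KDM4A (chr1:43650149-43705518), a demethylase of trimethylated H3K36 and H3K9, shares 40.2% of its exon bases with a second annotated gene on the same strand, ENSG00000284989, so its counts are uncertain. It had 21.6, 24.5 and 34.2 CPM in KO libraries in A1331852, against 34.4, 35.7 and 34.0 CPM in WT libraries in A1331852. In DMSO it had 36.1, 38.0 and 33.8 CPM in KO libraries, against 43.4, 39.3 and 46.0 CPM in WT libraries. The groups overlapped in A1331852 through KO replicate 3 and did not overlap in DMSO. Neither difference was called (-0.38 ± 0.16, adjusted p = 0.0962 in A1331852, and -0.25 ± 0.16, adjusted p = 0.313 in DMSO, edgeR). The A1331852 difference was called with the replicate block (-0.40, adjusted p = 0.0433) and without KO A1331852 replicate 3 (-0.59, adjusted p = 0.00702).

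ZMYND11 (chr10:134465-254637), the reader that restrains elongation at trimethylated genes, was lower in every KO library than in every WT library of its treatment. It had 54.9, 60.3 and 49.3 CPM in KO libraries in A1331852, against 104, 103 and 80.8 CPM in WT libraries in A1331852. In DMSO it had 60.5, 61.0 and 71.4 CPM in KO libraries, against 99.8, 92.7 and 99.7 CPM in WT libraries. It fell by 0.81 ± 0.13 on the log2 scale in A1331852 (95% interval -1.08 to -0.53, adjusted p = 7.57e-04, edgeR) and by 0.59 ± 0.13 in DMSO (-0.87 to -0.32, adjusted p = 0.00659). The DMSO difference was -0.66 in batch 2 and -0.48 in batch 1. Both calls held under each of the 19 alternative fits, with changes of -0.92 to -0.73 in A1331852 and -0.66 to -0.54 in DMSO. In A498 the values overlapped at 57.8 and 76.0 CPM in deficient libraries, against 70.2 and 76.5 CPM in add-back libraries (-0.15, 95% interval -0.47 to 0.16). Without deficient replicate 2 the ZMYND11 difference there was -0.36, resting on the 1 deficient library with the lower long-gene measure (-0.15). The 786-O minus A498 difference of -0.47 ± 0.21 was not called (adjusted p = 0.164, edgeR).

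A1331852 was next compared with DMSO within each genotype. In KO cells 2 of the 10 genes rose, NSD2 by 0.69 ± 0.16 (adjusted p = 0.0168, edgeR) and SMYD2 by 0.63 ± 0.15 (adjusted p = 0.0186), where 13.5% of all genes were called (6.46% higher and 7.08% lower). In WT cells none of the 10 was called, where 0.141% of all genes were called (0.0369% higher and 0.105% lower), and the same genes had estimates of 0.68 ± 0.17 (NSD2, adjusted p = 0.147) and 0.34 ± 0.15 (SMYD2, adjusted p = 0.377). At an unadjusted p under 0.05, 2080 of all genes passed in WT cells, and in DESeq2 NSD2 was called in WT cells (adjusted p = 0.00519). The response in KO minus that in WT cells was 0.01 (95% interval -0.39 to 0.41) for NSD2 and 0.29 (-0.08 to 0.67) for SMYD2, and none of the 10 genes was called for that difference by edgeR or DESeq2 (SETD2 alone passed an unadjusted p under 0.05), where 0.295% of all genes were (0.203% higher and 0.0923% lower).

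For NSD2 the direction rested on the batch term. The KO libraries averaged 315.7 ± 6.92 CPM in A1331852 and 317.7 ± 85.1 CPM in DMSO (SD, n = 3 each), and without the batch term the estimate was -0.01 (adjusted p = 0.982, edgeR). Within batch 1, where each genotype has 1 DMSO library, A1331852 minus DMSO was 0.52 in KO and 0.87 in WT cells. The NSD2 call was lost without WT DMSO replicate 3 (adjusted p = 0.117). SMYD2 was higher in all 3 KO A1331852 libraries (54.3 to 58.8 CPM) than in all 3 KO DMSO libraries (37.5 to 39.8 CPM), and its call was lost without KO DMSO replicate 3 or WT DMSO replicate 3 (adjusted p = 0.115 each). Fitted to batch 1 alone, neither was called (NSD2 0.52, adjusted p = 0.382, and SMYD2 0.59, adjusted p = 0.357).

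SETD2 itself differed by 0.57 ± 0.22 between A1331852 and DMSO in KO cells (95% interval 0.09 to 1.04, adjusted p = 0.105, edgeR) and by 0.00 ± 0.21 in WT cells (-0.46 to 0.47). The difference of these responses was 0.56 ± 0.25 (0.02 to 1.10, adjusted p = 0.438). Without KO A1331852 replicate 1 the KO response was 0.79 (adjusted p = 0.00707, called). The other genes were not called in either genotype: in KO cells KDM4A had -0.45 ± 0.19 (adjusted p = 0.147), ZMYND11 -0.33 ± 0.15 (0.174), ASH1L -0.28 ± 0.20 (0.380), NSD3 0.22 ± 0.18 (0.462), SETMAR -0.54 ± 0.49 (0.509), KDM2A 0.07 ± 0.17 (0.841) and NSD1 0.02 ± 0.20 (0.959). Without KO A1331852 replicate 3, KDM4A was called lower (-0.66, adjusted p = 0.0167).

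**Figure D4:**
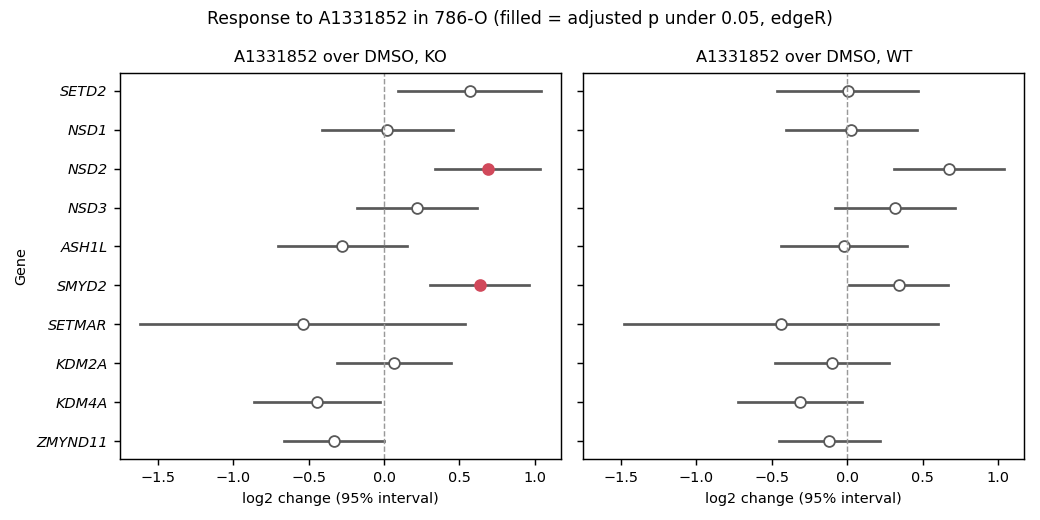
Log2 change of each gene with its 95% interval for A1331852 over DMSO in KO and in WT cells of 786-O, with filled points for an adjusted p under 0.05 (edgeR). NSD2 (0.69) and SMYD2 (0.63) are filled in KO cells and no point is filled in WT cells.

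Other genes of the mark were then counted by list. Of 13 tested SET-domain genes outside the 10 (of 14 listed, PRDM9 being at 0 in 15 of the 16 libraries), 2 fell in KO cells in A1331852, KMT2A (-0.74 ± 0.21, adjusted p = 0.0193) and SETD3 (-0.38 ± 0.13, 0.0435), and none was called in DMSO by edgeR or DESeq2, where KMT2A (-0.59), SETD3 (-0.31) and SMYD3 (-0.37) passed an unadjusted p under 0.05. KMT2A methylates H3K4, and SETD3 methylates actin. The KMT2A call did not hold when replicate 1 of either A1331852 group was left out, and the SETD3 call held in 6 of 19 alternative fits. The list's median was -0.18 in A1331852 and -0.17 in DMSO. Of the 13 genes, 2 were called in A1331852 and 0 in DMSO, where 28.2% and 18.5% of all genes were called. In A498, SETD6 (0.84 ± 0.16, adjusted p = 0.00168) and SMYD3 (0.72 ± 0.16, 0.00400) rose in the deficient libraries and SETD3 (-0.40 ± 0.13, 0.0373) fell, with a list median of 0.09. SETD6 and SMYD3 act mainly on non-histone proteins, and both differed between the lines (786-O minus A498 -1.08 ± 0.22 and -1.13 ± 0.24, adjusted p 0.00454 and 0.00609). The SMYD3 calls were lost without A498 add-back replicate 2. The list had 3 of 13 genes called in A498, where 30.2% of all genes were called.

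Of 6 further H3K36 demethylases, KDM4B alone was called, lower in KO cells in A1331852 (-0.41 ± 0.13, adjusted p = 0.0323, edgeR, held in 9 of 19 alternative fits) and in deficient A498 libraries (-0.59 ± 0.14, 0.00607, lost without add-back replicate 2). That is 1 of 6 genes in A1331852 and in A498, where 28.2% and 30.2% of all genes were called. The list's median was -0.09 in A1331852, -0.12 in DMSO and -0.14 in A498. None of 7 cofactors and regulators of SETD2, such as IWS1 and SUPT6H, which couple it to the polymerase, was called in any of the 7 comparisons by edgeR or DESeq2 or passed an unadjusted p under 0.05. Their medians were 0.02 in A1331852, 0.01 in DMSO and -0.00 in A498.

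Among 19 readers of methylated H3K36, 5 rose and 2 fell in KO cells in A1331852, 3 rose and 2 fell in DMSO, and 4 rose and 2 fell in deficient A498 libraries. Of the 19 that is 7, 5 and 6 genes, where 28.2%, 18.5% and 30.2% of all genes were called. The list's medians were -0.09, 0.04 and 0.06. MSL3, of the complex that acetylates H4K16, rose by 0.81 ± 0.15 in A1331852 (adjusted p = 0.00204, edgeR, under all 19 alternative fits) and 0.63 ± 0.15 in DMSO (0.0111). The DMSO call was lost without replicate 2 or replicate 3 of either genotype. GLYR1, which helps polymerase through nucleosomes, rose by 0.81 ± 0.20 (0.0103) in A1331852 and 0.74 ± 0.20 (0.0218) in DMSO, the second lost without any single DMSO library. MTF2, a Polycomb-like protein, fell by 0.54 ± 0.11 on the log2 scale in A1331852 (adjusted p = 0.00310), and its relative PHF19 rose by 0.64 ± 0.13 in DMSO (0.00598, lost without WT DMSO replicate 3). PHF19 was also called higher in A1331852 (0.49 ± 0.13, 0.0179) and in deficient A498 libraries (0.43 ± 0.13, 0.0194). PWWP2B fell in DMSO (-0.83 ± 0.20, 0.0123) and was not called in A1331852 (-0.11). In A498, MORF4L2 (0.64 ± 0.11, adjusted p = 6.83e-04) and the DNA methyltransferase DNMT3B (0.72 ± 0.14, 0.00135) rose under all 9 alternative fits. HDGFL2 (-0.66 ± 0.14, adjusted p = 0.00285, edgeR) and a second DNA methyltransferase, DNMT3A (-0.62 ± 0.15, 0.00552), fell there.

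Of 6 genes of Polycomb repressive complex PRC2, which writes H3K27 methylation and is inhibited by H3K36 methylation on the same tail, EED fell in KO cells by 0.62 ± 0.19 on the log2 scale in A1331852 (adjusted p = 0.0261, edgeR) and by 1.16 ± 0.19 in DMSO (0.00134). Its levels were 17.4, 15.7 and 10.4 CPM in KO libraries in A1331852, against 24.8, 23.0 and 19.3 CPM in WT libraries in A1331852. In DMSO they were 9.94, 8.57 and 10.1 CPM in KO libraries, against 22.8, 19.9 and 21.5 CPM in WT libraries. The genotypes did not overlap, and the DMSO call held under all 19 alternative fits, while the A1331852 call was lost without replicate 2 of either genotype, WT replicate 1 or KO replicate 3. The catalytic subunit EZH2 was at -0.14 ± 0.22 in A1331852 and -0.07 ± 0.22 in DMSO, and the list's medians were -0.31 and -0.30. EED was the only 1 of the 6 called in either treatment, where 28.2% and 18.5% of all genes were called. H3-3A, a gene for histone H3.3, fell by 0.73 ± 0.13 on the log2 scale in A1331852 (0.00196, under all 19 alternative fits) and by 0.57 ± 0.13 in DMSO (0.0109, lost without replicate 3 of either genotype), and H3-3B, which encodes the same protein, was not called (0.08 and 0.01). Without the batch term the calls of KMT2A, MTF2 and EED in A1331852 and of GLYR1, PHF19 and H3-3A in DMSO were also lost, and within batch 1 alone those of KMT2A, GLYR1 and EED in A1331852.

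**Figure D5:**
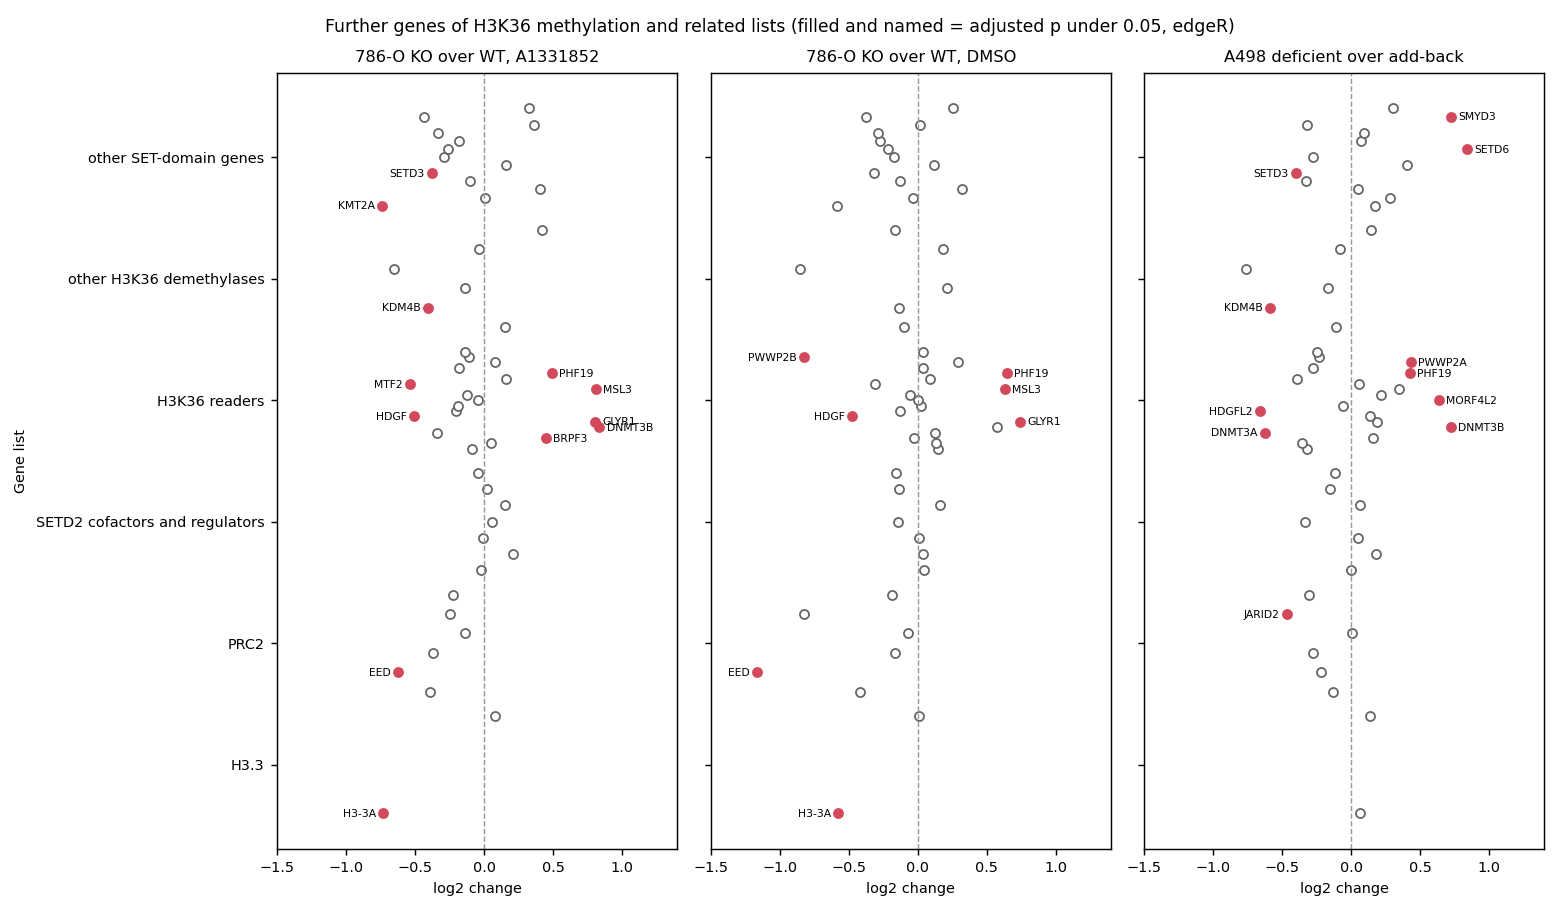
Log2 change of each tested gene of 6 further lists in 786-O KO over WT cells in A1331852, in KO over WT cells in DMSO, and in A498 deficient over add-back libraries, 1 point per gene, with filled and named points for an adjusted p under 0.05 (edgeR). EED and H3-3A lie below 0 in both 786-O panels, and no SETD2 cofactor is filled.

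The genes whose levels followed SETD2 most closely over the 6 groups were ranked by the root mean square difference of group mean log2 levels, centred within each line. Of 9386 coding genes with at least 5 CPM on average, the nearest were UCHL1 (0.0393), PFKM (0.0648), EED (0.0650), ASAP1 (0.0925) and SGK1 (0.0960), against a median of 0.457 over all of them. UCHL1, a ubiquitin hydrolase, averaged 517.6 ± 54.9 CPM in KO and 819.1 ± 87.2 CPM in WT libraries in A1331852, and 387 ± 23.5 CPM in KO and 844 ± 8.49 CPM in WT libraries in DMSO (SD, n = 3 each). With 6 group means this ranking is a description of these libraries.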

How the data were processed

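RNA from 16 libraries was analysed from the gene counts that the authors deposited, 1 table per library. Per the file headers, fragments were counted over exons by gene name with featureCounts 1.5.0-p3 on STAR alignments in reverse-stranded mode, with GENCODE release 41. The submitters' processing notes name GRCh38, MultiQC 1.7 and DESeq2. Per the labels' protocols, mRNA was selected with oligo(dT) beads, so the tables hold polyadenylated RNA. No molecular identifiers are named there.

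Groups, replicate numbers and batches came from the labels. Counts were TMM-scaled, filtered by group at a minimum count of 10, and tested by the quasi-likelihood method of edgeR 4.0.16 (R 4.3.3). All genes that passed entered the Benjamini-Hochberg adjustment, and a gene was called at an adjusted p under 0.05. The first model held the 12 libraries of 786-O with a batch term, another the 4 A498 libraries, and the last all 16, for contrasts between lines. The settings were tested on simulated data. CPM values use TMM-scaled totals, and TPM divides counts by the exon length in the tables. Total counts were 14172118 to 36037616, and errors are the spread between libraries. No replicate pair agreed within sampling noise: the mean chi-square per gene was at least 2.96, against 1 from sampling alone. DMSO replicates 1 and 2 lay closest, at 2.96 in KO and 3.47 in WT cells. Either of them with DMSO replicate 3 gave 82.1 to 118.1. The SD and SE of the DMSO groups may therefore rest on fewer independent samples than libraries.

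Alternatives were DESeq2 1.42.0, median-of-ratios scaling, no low-count filter, a mean of at least 50 counts, no batch term, fits within 1 batch, replicate blocks and leaving out each library. Same-numbered KO and WT libraries were taken as pairs because their residuals had correlations of 0.271 to 0.506 (A1331852) and 0.569 to 0.765 (DMSO). In DMSO this followed the batches, since replicates 1 and 2 correlated as strongly across numbers (0.566 and 0.601). In A1331852, replicates 1 and 2 also correlated across numbers (0.130 and 0.222), below their same-numbered pairs (0.271 and 0.280). The pairing was thus chosen from the same data to which the block was fitted.

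The 10 genes, the lists and the rule for naming list genes (up to 4 called genes per list and comparison, by smallest adjusted p) were chosen with earlier results of these data known. List genes named in the text were picked within that rule. Promoters were matched by symbol for 9 of the 10 genes in the RefSeq table, taking the start nearest to the counting annotation, and the sequence of NSD3 was not used here.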

Additional observations from a re-analysis of the deposited data

Results flagged for a closer look

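The difference with SETD2 status was called as unlike between the lines for SETD2 itself and for SMYD2, by a test across all 16 libraries (edgeR). Of the 10 genes, SMYD2 was the only one called apart from SETD2, the gene altered. Over all genes, 13.2% of 17868 were called. The SETD2 call was lost without A498 deficient replicate 2 or A498 add-back replicate 1. That of SMYD2 was lost without any of several single libraries, without the batch term and without the low-count filter. SETD2 counts in A498 do not tell an introduced copy from the line's own transcript. For SETD2, KO against WT in 786-O in DMSO minus deficient against add-back in A498 was -1.24 ± 0.29 on the log2 scale (adjusted p = 0.0106): all 3 KO libraries lay below all 3 WT libraries in 786-O, and the A498 libraries overlapped. For SMYD2 the difference was -0.73 ± 0.19 (adjusted p = 0.0175): the KO libraries were lower than the WT libraries in 786-O, and both deficient libraries were higher than both add-back libraries in A498. Line, batch and the way in which SETD2 was removed or restored cannot be told apart in this design.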

How the results depend on the processing

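For KO against WT cells, the number of the 10 genes called in DMSO, SETD2 included, was 3, where 3001 genes were called over all genes. It was 6 under the replicate block (4646 over all genes) and 8 within batch 2 (9276). With 1 library left out it was 2 to 5 (1614 to 4363). In A1331852 the number was 3 (4588 over all genes), with 5 under the block (6278). With 1 library left out it was 3 to 5 there (3417 to 5455). For A1331852 against DMSO in KO cells it was 2, with 1 without the batch term, 5 under the block, 0 within batch 1 and 0 to 3 with 1 library left out. In WT cells it was 0, with 1 in DESeq2, 1 without the low-count filter and 2 under the block. Over all genes the block called 4311 in KO and 2831 in WT cells for A1331852 against DMSO, against 2201 and 23 without it. In A498 it was 1, with 0 in DESeq2 and 0 to 3 with 1 library left out. For the difference between lines it was 2, with 1 without the batch term, 1 without the low-count filter and 0 to 2 with 1 library left out. Residuals of the same number did not correlate between A1331852 and DMSO (-0.0465 to 0.0542), and A498 has only 2 pairs (0.152), so the block pairs nothing known there.

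SETD2 in KO against WT cells was -1.26 to -1.17 in DMSO and -0.81 to -0.43 in A1331852 with 1 library left out, and -0.64 in A1331852 within batch 1 (adjusted p = 0.0844, edgeR). Its response to A1331852 in KO cells was 0.66 under the block (adjusted p = 0.0494) and 0.41 to 0.79 with 1 library left out. Its difference between lines was -1.48 to -0.95 with 1 library left out. Where either value was called, NSD2 changed sign in 2 fits: -0.15 for KO against WT in DMSO within batch 2 (adjusted p = 0.00593), and -0.012 for A1331852 against DMSO in KO cells without the batch term. Uncalled values near 0 also changed sign, such as NSD2 in KO against WT cells with 1 library left out (-0.18 to 0.08 in DMSO, -0.07 to 0.08 in A1331852). Under the block, SETMAR was called lower with A1331852 in KO (-1.71, adjusted p = 5.83e-04, edgeR) and WT cells (-1.66, 0.00205), and ZMYND11 in KO cells (-0.53, 0.0122). The causes were not tested.

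Over all genes, 3001 were called for KO against WT in DMSO (1490 without the batch term, 4646 under the block, 9276 within batch 2) and 4588 in A1331852 (2489 without the batch term, 2376 within batch 1). For A1331852 against DMSO, 2201 were called in KO cells (4311 under the block, 85 within batch 1) and 23 in WT cells (415 in DESeq2, 6 without the batch term, 909 without the low-count filter, 2831 under the block, 0 within batch 1). For the difference of responses 48 were called (371 in DESeq2, 7 without the batch term, 647 without the low-count filter, 294 under the block, 0 within batch 1), and for the difference between lines 2362 (1067 without the batch term, 3692 under the block). With 1 library left out the counts were 1614 to 4363 in DMSO, 592 to 3593 for KO cells, 0 to 64 for WT cells, 2246 to 6272 in A498 (4657 with all libraries) and 1151 to 3326 for the difference between lines. For the difference of responses they went from 0 to above the 371 of DESeq2.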
